A study of Homo sapiens with 18 samples.

Results

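The 35 genes described here encode aminoacyl-tRNA synthetases, the enzymes that join each amino acid to its tRNA. They were chosen by their names and function from the 58302 genes counted in U87 cells, with earlier results of these data known. The set comprises 19 enzymes of the cytosol and 16 enzymes of mitochondria, whose symbols end in 2. Every amino acid is activated with ATP and passed to the end of a matching tRNA, and the ribosome then reads the tRNA with no further check of the amino acid. The mitochondrion translates a small set of respiratory chain proteins with its own ribosomes and its own tRNAs, so most amino acids need a second, nuclear-encoded enzyme that is imported. Where an amino acid runs short, uncharged tRNA binds the kinase GCN2 (gene EIF2AK4), which lowers translation in general and raises translation of the transcription factor ATF4. ATF4 in turn is known to act on genes of amino acid uptake, synthesis and tRNA charging.

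RNA-seq was performed in U87 (U87MG), an established human glioblastoma line, in 2 libraries of control cells, labelled as normal growth condition, and 2 libraries of cells given Erastin at 10 μM for 72 h. The labels do not say whether the control cells received DMSO, the control given for the study's Western blot. Erastin blocks system Xc-, the transporter that brings in cystine, the source of cysteine, and is used to induce ferroptosis. Both groups were grown in DMEM with fetal bovine serum, and the labels name no genetic change for either. The comparison asks how the mRNA of the charging enzymes differed between ferroptotic and control glioblastoma cells. The values are read counts per gene, with totals of 29412656 to 31513519 counts and 23519 to 23990 genes with a count per library. They are given as CPM, the counts divided by the library total and by the TMM factor of edgeR, on a common scale. These factors lay between 0.9711 and 1.018. A gene is called higher or lower where the adjusted p of edgeR's quasi-likelihood test over the 16751 genes tested was under 0.05, and log2 fold changes are Erastin over control. Since no source says whether the replicates were separate cultures, p-values measure only the spread between these libraries, and an exact permutation test of 2 against 2 libraries could not go below a two-sided p of 0.333.

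The line expressed its mesenchymal glioma markers strongly, with VIM at 2482 and 2547 CPM in control and 1609 and 1720 CPM in Erastin cells. Of the astrocyte markers, AQP4 was at 0 counts in all libraries and S100B at 0 to 2. GFAP had 46 and 41 counts in control and 69 and 81 in Erastin cells (log2 fold change 0.79), and was not called. Neither were SLC1A2 (-0.24) and ALDH1L1 (0.30). SLC1A3 was lower, with 1741 and 1725 counts in control and 307 and 326 in Erastin cells. The 6 astrocyte markers, mostly SLC1A3, summed to 58.8 and 60.4 CPM in control and 14.3 and 15 CPM in Erastin cells. The 4 neuronal markers summed to 52.7 and 57.5 against 12.9 and 13 CPM. Nearly all of this was SNAP25 and SYT1, while RBFOX3 and STMN2 had 0 to 9 counts. The 4 immune markers summed to 8.7 and 8.82 CPM in control and 5.18 and 6.33 CPM in Erastin cells, nearly all of it CSF1R, while PTPRC had 0 or 1 count and AIF1 had 0. The 3 endothelial markers summed to 4.64 and 6.18 against 1.64 and 2.07 CPM, with PECAM1 lower (log2 fold change -2.34), VWF higher (2.58) and CDH5 at 0 or 1 count. The 4 oligodendrocyte markers summed to 3.4 and 3.35 against 2.31 and 2.04 CPM, mostly OLIG2, with MOG at 0. MKI67, a gene of dividing cells, stood at 323 and 357 CPM in control and 20.6 and 25.2 CPM in Erastin cells. The part of these differences in the results on the synthetases was not tested. In bulk RNA, fewer cells of a type and less RNA per cell cannot be told apart.

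Several promoters of the synthetases hold a short sequence known from genes of amino acid supply. The C/EBP-ATF response element (CARE) is the DNA element on which ATF4 pairs with C/EBP factors, and its core was searched as TGATGNAA on either strand. In the RefSeq windows of GRCh38.p14, from 250 bases before to 50 bases after the annotated start, 30 of the 35 members had an entry, and 9 of these had several. The core was held by 7 of 16 cytosolic members (43.8%), by 1 of 14 mitochondrial members (7.14%) and by 1217 of all 27305 genes in the table (4.46%). The 8 matches are printed 5′ to 3′ on the strand of the gene, in 30 bases each, with the core in capitals, because they are what these promoters share beyond the enzymes' names.
IARS1, chr9:92293692-92293721, minus strand: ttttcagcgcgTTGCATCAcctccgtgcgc
GARS1, chr7:30594834-30594863, plus strand: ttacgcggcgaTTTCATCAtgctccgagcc
MARS1, chr12:57488053-57488082, plus strand: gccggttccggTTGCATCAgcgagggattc
NARS1, chr18:57621804-57621833, minus strand: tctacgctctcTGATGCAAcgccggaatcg
TARS1, chr5:33440956-33440985, plus strand: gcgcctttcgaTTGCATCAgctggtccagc
AARS1, chr16:70289675-70289704, minus strand: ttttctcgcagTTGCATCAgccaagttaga
CARS1, chr11:3057407-3057436, minus strand: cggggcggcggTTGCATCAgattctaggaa
YARS2, chr12:32756076-32756105, minus strand: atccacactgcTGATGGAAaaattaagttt

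In 6 of the 8 windows the core had the same 8 letters, TTGCATCA or their reverse complement, while GARS1 and YARS2 each differed at the free position. The matches of IARS1, MARS1, NARS1, TARS1, GARS1 and CARS1 lay close to the start, from position -33 to position 22. Those of AARS1 and YARS2 lay further upstream, with their first bases at positions -187 and -197. A match of letters is a description and not evidence of binding.

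After Erastin, mRNA of cytosolic synthetases was higher for the greater part of the group, and that of mitochondrial synthetases moved both ways. The test could be run on 32 of the 35 members, 18 cytosolic and 14 mitochondrial, since the other 3 had too few counts. Of the 18 cytosolic enzymes, 11 were higher (61.1%), 3 were lower (16.7%) and 4 did not pass the test, with a median log2 fold change of 0.28. Of the 14 mitochondrial enzymes, 5 were higher (35.7%), 2 were lower (14.3%) and 7 did not pass, with a median of 0.18 that was 0.09 without the second control or the first Erastin library. Over all genes tested, 23.2% were higher, 23.7% were lower, 47% passed in either direction and the median was -0.00. Whether the shares of the compartments differ was not tested.

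The changes were mostly below a doubling. At the study's thresholds (adjusted p under 0.05 and a log2 fold change of 1 or more either way), 1 mitochondrial member was higher, AARS2, and 1 cytosolic member was lower, CARS1, against 6.24% and 9.34% of all genes tested in the respective directions. Both Erastin libraries lay above both controls for 11 cytosolic and 7 mitochondrial members, and below them for 3 and 5, where 36.7% and 36.9% of all tested genes did so. The summed CPM of the 18 cytosolic genes was 3901 and 3777 in control and 5400 and 5299 in Erastin cells, a ratio of 1.39. For the 14 mitochondrial genes the sums were 1016 and 942 against 1114 and 1097 CPM, a ratio of 1.13. Replicates of 1 group differed by -0.34 to 0.40 on the log2 scale for the 31 tested members other than CARS1.

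**Figure D1:**
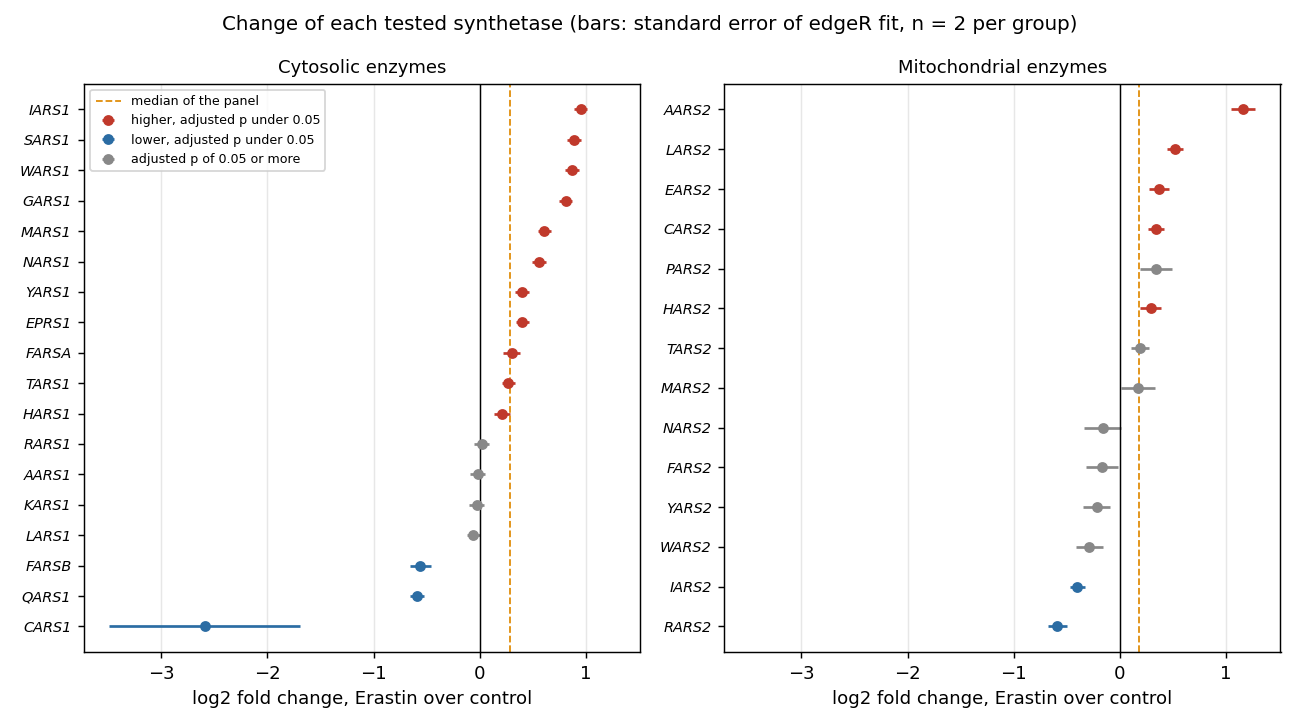
Log2 fold change (Erastin over control) of each tested cytosolic (left, 18 genes) and mitochondrial (right, 14 genes) synthetase, with the standard error of the edgeR fit as bars (n = 2 per group) and the panel's median as a dashed line. The cytosolic panel has 11 higher genes from 0.21 to 0.95, while the mitochondrial panel ranges from -0.59 to 1.16 with AARS2 at the top.

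The largest rise among cytosolic enzymes was that of IARS1 (ENSG00000196305, chr9:92210207-92293756, GRCh38), which charges isoleucine and belongs to the multisynthetase complex. It had 621 and 602 CPM in control and 1208 and 1153 CPM in Erastin cells, so that the groups lay far apart compared with the replicates. This was a log2 fold change of 0.95 (SE 0.0632, where SE is the standard error of the edgeR fit; adjusted p = 2.45e-07). IARS1 also carried, besides the CARE core printed above, the only E-box among the 16 cytosolic members with a window, at positions -186 to -181.

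SARS1 (ENSG00000031698, chr1:109213918-109238169) charges serine, and the same enzyme also charges the tRNA of selenocysteine, the residue in the active site of GPX4. It stood at 250 and 244 CPM in control and 465 and 450 CPM in Erastin cells (log2 fold change 0.89, SE 0.0632, adjusted p = 4.22e-07). WARS1 (ENSG00000140105, chr14:100333788-100376805), the tryptophan enzyme, which is also known as an interferon-induced gene, rose from 129 and 132 CPM to 237 and 240 CPM. Its log2 fold change was 0.87 (SE 0.0649, adjusted p = 6.18e-07), and the replicates of each group were nearly equal. GARS1 (ENSG00000106105, chr7:30594681-30634033), which serves both compartments from 1 gene, had 394 and 376 CPM in control and 680 and 669 CPM in Erastin cells. Its log2 fold change was 0.81 (SE 0.063, adjusted p = 8.67e-07). In these 4 genes the mRNA was 1.75 to 1.93 times the control level.

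MARS1 and NARS1 followed. MARS1, the methionine enzyme, was at 199 and 191 CPM in control and 299 and 298 CPM in Erastin cells (log2 fold change 0.61, adjusted p = 1.06e-05). The counts disregarded strand, and 355 exon bases of MARS1 are shared with DDIT3 on the opposite strand. Reads from these bases could be assigned to neither gene and were left out. DDIT3, a stress gene, itself rose (375 and 410 counts in control, 958 and 1112 in Erastin cells). NARS1, the asparagine enzyme, was at 246 and 260 CPM in control and 387 and 361 CPM in Erastin cells (log2 fold change 0.56, adjusted p = 3.14e-05).

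EPRS1 carries both the glutamate and the proline activity in 1 chain, and belongs to the multisynthetase complex. It had 300 CPM in both control libraries and 402 and 391 CPM in Erastin cells, a log2 fold change of 0.40 (SE 0.0623, adjusted p = 0.000231). The tyrosine enzyme YARS1 changed by the same 0.40 (adjusted p = 0.000361). FARSA, TARS1 and HARS1, for phenylalanine, threonine and histidine, were higher by 0.30, 0.27 and 0.21, with adjusted p of 0.00866, 0.00485 and 0.048. The call of HARS1 was close to the threshold and was lost with DESeq2 (adjusted p = 0.0928) and without the second control, the first Erastin or the second Erastin library (0.276, 0.224 and 0.111). The call of FARSA was lost without the first Erastin library (0.0564) and that of TARS1 without the second (0.0639). HARS1 shared 18.3% of its exon bases with other genes.

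For 4 cytosolic enzymes no change was detected. KARS1, which makes the lysine enzyme of both compartments, was at 183 and 173 CPM in control and 170 and 178 CPM in Erastin cells, and the groups overlapped. Its log2 fold change was -0.03 with a 95% interval of -0.18 to 0.11. AARS1 had 301 and 267 against 280 and 279 CPM (interval -0.18 to 0.14), although its window holds a CARE core. The values of RARS1 (0.02, interval -0.14 to 0.18) and LARS1 (-0.06, interval -0.20 to 0.08) were of the same order. These intervals leave out a change as large as that of EPRS1 for each of the 4.

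Of the cytosolic enzymes that were lower, QARS1 (ENSG00000172053, chr3:49095932-49105135), the glutamine enzyme of the complex, had 221 and 209 CPM in control and 139 and 146 CPM in Erastin cells. Its log2 fold change was -0.59 (SE 0.0682, adjusted p = 2.23e-05), the opposite direction to IARS1, MARS1 and EPRS1 of the same complex. FARSB (ENSG00000116120, chr2:222570536-222656337), the beta subunit of the phenylalanine enzyme, had 103 and 101 CPM in control and 60.8 and 77.6 CPM in Erastin cells (log2 fold change -0.56, SE 0.101, adjusted p = 0.000679). The subunits FARSA and FARSB assemble in equal number, yet their mRNAs moved in opposite directions. The ratio of FARSA to FARSB in CPM per kilobase of exon was 1.29 and 1.14 in control and 2.52 and 1.95 in Erastin cells, and the groups did not overlap. Of the 31-base words of the canonical FARSB transcript, 56.2% also occur elsewhere in the primary genome. This transcript has 6761 bases against 3369 counted exon bases, so the share over the counted bases is not known. Reads that match several places were not counted, and the part of this in the value of FARSB was not tested.

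CARS1 (ENSG00000110619, chr11:3000922-3057613) attaches cysteine, the amino acid whose supply Erastin limits, but its counts could not be read as a change. The 2 control libraries had 520 and 22 counts, those of Erastin cells had 42 and 48, and the call as lower (log2 fold change -2.59, SE 0.897, adjusted p = 0.0328) rested on the first control library. Without that library the log2 fold change was 1.04 (adjusted p = 0.174), without the first Erastin library the adjusted p was 0.0869, and with DESeq2 it was 0.249. Of the 31-base words of its transcript, 76.3% also occur on the 261 alternate scaffolds of GRCh38, and the part of this in the low counts was not tested. The median of the other 17 cytosolic enzymes was 0.30, with 11 higher and 2 lower. VARS1, the valine enzyme, had 0 to 3 counts per library and was not tested, and 80.5% of its words occur on alternate scaffolds.

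The members of the multisynthetase complex did not move as a block. This cytosolic assembly holds synthetases around the scaffold proteins AIMP1, AIMP2 and AIMP3, the last of which is encoded by EEF1E1. Of its 7 enzymes among the members, IARS1, MARS1 and EPRS1 were higher, QARS1 was lower, and KARS1, LARS1 and RARS1 did not pass, with a median of 0.02. Of the 11 tested cytosolic enzymes outside it, 8 were higher and 2 lower, with a median of 0.30. Of the scaffold genes, AIMP1 (0.26) and AIMP2 (0.39) were higher and EEF1E1 (-0.64) was lower, with adjusted p of 0.0308, 0.0187 and 0.0263. By structural class, 4 of 8 tested class I and 6 of 9 class II cytosolic enzymes were higher, with EPRS1 holding a domain of each class.

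Among the mitochondrial enzymes, AARS2 (ENSG00000124608, chr6:44299654-44313326), which charges alanine in the matrix, had the largest change. It stood at 22.9 and 18.9 CPM in control and 44.9 and 48.5 CPM in Erastin cells, a log2 fold change of 1.16 with SE 0.114 (adjusted p = 6.12e-06). Even its lower Erastin value was far above its higher control value. Omission of any single library gave log2 fold changes from 1.02 to 1.31. In its canonical transcript (4798 bases, against 4298 counted exon bases) 24.6% of the 31-base words occur elsewhere in the primary genome.

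LARS2 (ENSG00000011376, chr3:45388506-45549421), the leucine enzyme, had 59.4 and 55.4 CPM in control and 83.4 and 81.2 CPM in Erastin cells (log2 fold change 0.52, SE 0.0758, adjusted p = 0.000147). EARS2, which charges glutamate and also places glutamate on the mitochondrial tRNA of glutamine, had 44 and 38.8 against 52.1 and 55.1 CPM (0.37, adjusted p = 0.0058). CARS2, the mitochondrial cysteine enzyme, had 486 and 420 CPM in control and 573 and 576 CPM in Erastin cells (0.34, adjusted p = 0.00268). CARS2 had the most counts of the mitochondrial members. Its cytosolic counterpart CARS1 had the lowest mean level per kilobase of the tested members. With control counts of 520 and 22 and 76.3% of its words on alternate scaffolds, the levels of these enzymes cannot be compared. HARS2 had 29.5 and 29.2 against 37.4 and 34.1 CPM (0.29, adjusted p = 0.0347), a call that was lost with DESeq2 (0.0756) and without the first control, the second control or the first Erastin library (0.0558, 0.0909 and 0.245).

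RARS2 and IARS2 were the mitochondrial enzymes that were lower. RARS2 (ENSG00000146282, chr6:87514378-87590003), for arginine, had 46.1 and 47.9 CPM in control and 30.7 and 31.9 CPM in Erastin cells (log2 fold change -0.59, SE 0.0912, adjusted p = 0.000238). IARS2 (ENSG00000067704, chr1:220094102-220148041), for isoleucine, had 203 and 208 against 163 and 148 CPM (-0.40, SE 0.0708, adjusted p = 0.000641). IARS2 lies 47443 bases from EPRS1 on chromosome 1, and the neighbours moved in opposite directions. The third largest fall, WARS2 for tryptophan, was -0.29 and did not pass (17.1 and 16.6 against 13.3 and 14.2 CPM, adjusted p = 0.0814).

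The other mitochondrial members that did not pass were PARS2 (0.34, adjusted p = 0.0872), TARS2 (0.19, 0.103), MARS2 (0.17, 0.423), NARS2 (-0.16, 0.493), FARS2 (-0.17, 0.364) and YARS2 (-0.22, 0.171). Of these, PARS2, MARS2, NARS2 and FARS2 lay at 8.83 to 15.3 CPM, where their standard errors were wider than those of the abundant cytosolic enzymes, so smaller changes were not detectable. SARS2 and VARS2 had 0 counts in every library and were not tested. Of the exon bases of SARS2, 57% are shared with other genes, which also had 0 counts, and the neighbouring SIRT2, NFKBIB and FBXO17 had 0 to 6. For VARS2, 77.4% of the words occur on alternate scaffolds, and the overlapping GTF2H4 had 0 counts too. What set the counts of the 3 untested genes near 0 was not tested, so no level is given for them.

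**Figure D2:**
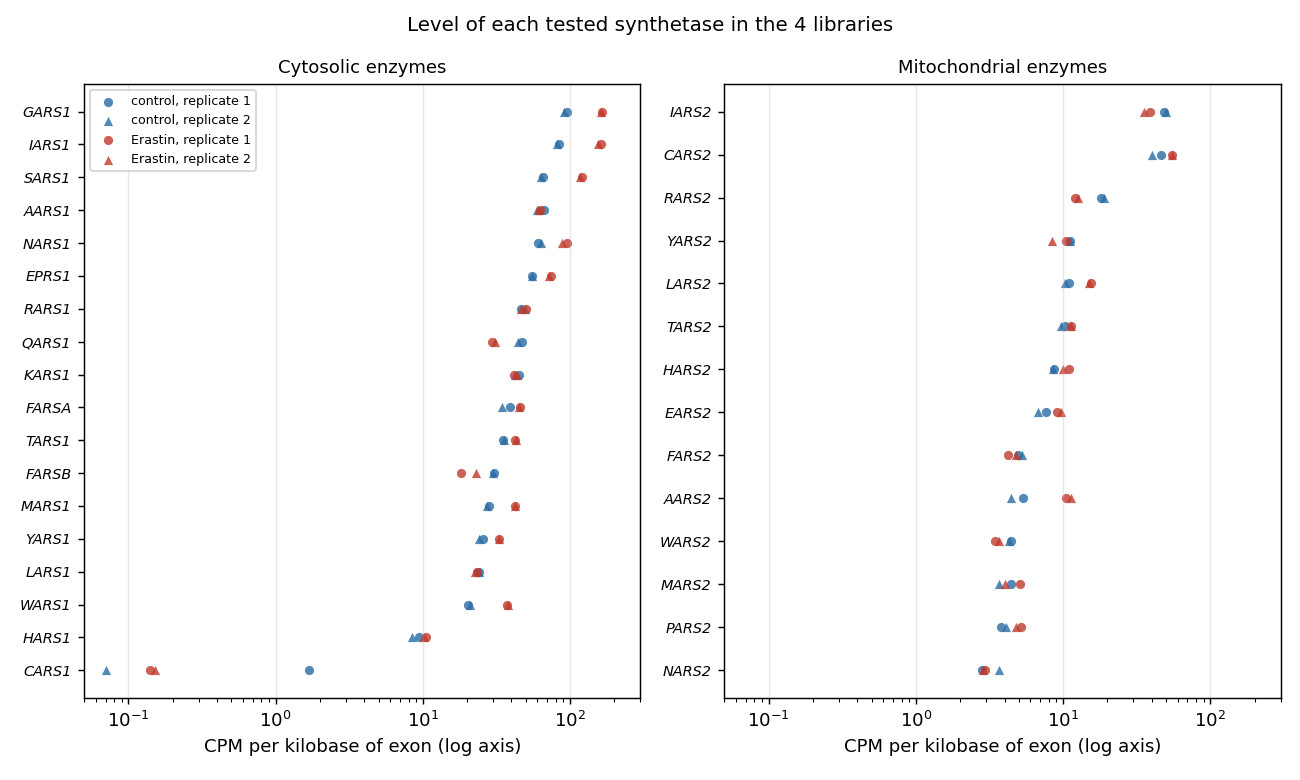
Level of each tested synthetase in CPM per kilobase of exon (log axis), for cytosolic (left) and mitochondrial (right) enzymes, with 1 point per library. Most cytosolic genes lie to the right of most mitochondrial genes, GARS1 reaches 163 in Erastin cells, and the CARS1 points of the 2 control libraries stand far apart.

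Levels of different genes were set side by side per length, and in CPM per kilobase of exon the cytosolic enzymes were mostly the more abundant ones. The length was that of all annotated exon bases, which can far exceed that of the canonical transcript. These were 10460 and 1838 bases for CARS2, and 4165 and 3530 for IARS2. The ranks below hold for this length only. GARS1 (92.7 in control, 163 in Erastin cells), IARS1 (82.6 and 159) and SARS1 (64.4 and 119) held ranks 1 to 3 of the 32 tested members in both groups. In control, SARS1 (64.4), AARS1 (63.0) and NARS1 (61.9) were close neighbours, and in Erastin cells the order had parted, to 119, 62.1 and 91.5. IARS2, at 49.3, had the highest value per kilobase of the mitochondrial enzymes in control and ranked 7. In Erastin cells it was at 37.4 and ranked 14. CARS2 moved from rank 11 (43.3) to rank 7 (54.9), and QARS1 from rank 9 (45.7) to rank 16 (30.3). Apart from IARS2 and CARS2, the group means of the mitochondrial enzymes lay between 2.91 and 18.5.

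For 14 amino acids a cytosolic and a mitochondrial enzyme are among the members, and 12 of these pairs had values. The log2 ratio of their levels per kilobase, cytosolic over mitochondrial, was positive in every library for 10 of the 12 pairs. The size and sign of a ratio depend on the exon lengths used, which were the same in every library. In 7 pairs the ratio was higher in both Erastin libraries than in both control libraries, in 2 it was lower, and in 3 the groups overlapped. Of all single genes tested, 36.7% lay above and 36.9% below both controls in this way. The share for ratios of other gene pairs was not computed. No test was run on these ratios. Among the 9 pairs whose groups did not overlap, the largest shift was that of isoleucine, where IARS1 over IARS2 was 0.78 and 0.71 in control and 2.06 and 2.13 in Erastin cells, since IARS1 rose and IARS2 fell. In linear terms, IARS1 went from 1.67 to 4.26 times the level of IARS2.

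For tryptophan, WARS1 over WARS2 was 2.19 and 2.27 in control and 3.43 and 3.36 in Erastin cells. Smaller shifts in the same direction were seen for asparagine (0.71), tyrosine (0.63), arginine (0.61), phenylalanine (0.48, FARSA over FARS2) and methionine (0.45), given as differences of the mean log2 ratios. In the arginine pair RARS1 did not pass the test and RARS2 was lower. Alanine and leucine went the other way. AARS1 over AARS2 was 3.65 and 3.75 in control and 2.58 and 2.46 in Erastin cells, and LARS1 over LARS2 was 1.12 and 1.23 against 0.60 in both Erastin libraries. In both of these pairs the cytosolic gene did not pass the test and the mitochondrial gene was higher. For histidine and threonine the mean ratio moved by -0.08 and 0.08, and the groups overlapped. The third overlapping pair was cysteine, where CARS1 over CARS2 was -4.78 and -9.15 in control and -8.61 and -8.50 in Erastin cells. These values carry the uneven control counts of CARS1 and the share of its words on alternate scaffolds given above.

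**Figure D3:**
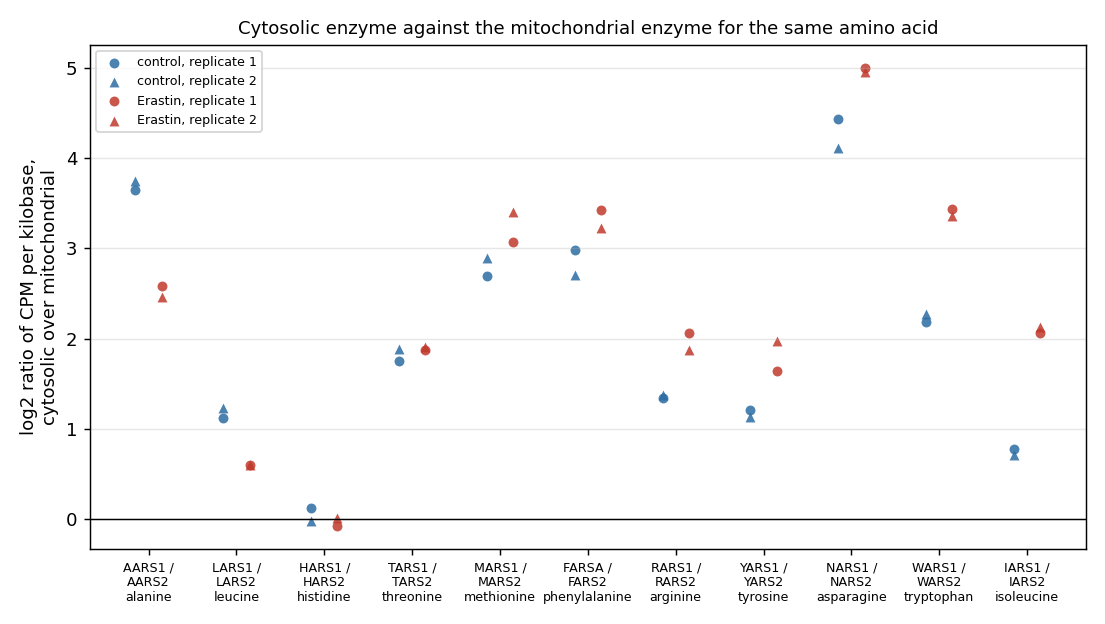
Log2 ratio of the levels per kilobase of exon, cytosolic over mitochondrial enzyme, for the 11 amino acids whose pairs had values other than cysteine, with 1 point per library. Alanine and leucine are lower in both Erastin libraries, histidine and threonine overlap, and the ratios of the 7 pairs from methionine to isoleucine are higher in both Erastin libraries.

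The histidine pair is also a pair in the genome. HARS1 and HARS2 lie head to head on chromosome 5 on opposite strands, with 592 exon bases in common, and both were higher by similar amounts (0.21 and 0.29). Per kilobase of all annotated exon bases their values were nearly equal, 8.93 and 8.60 in control and 10.3 and 10.5 in Erastin cells. Those lengths were 8436 bases for HARS1 and 3408 for HARS2, whereas the canonical transcripts have 1948 and 2468. The control means were 75.4 and 29.3 CPM, so the near equality depends on the length used. Since strand was not used in counting, reads from the shared bases could not be assigned to either gene.

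Of the cytosolic members with the CARE core, 5 of 7 were higher (IARS1, GARS1, MARS1, NARS1 and TARS1), 1 was lower (CARS1, with the reservation given above) and AARS1 did not pass, with a median log2 fold change of 0.56. Of the 9 cytosolic members with a window but no core, 5 were higher (SARS1, WARS1, EPRS1, FARSA and HARS1), 2 were lower and 2 did not pass, with a median of 0.21. Over all genes tested, 23.2% were higher and 23.7% were lower. Whether members with and without the core differ was not tested. SARS1 and WARS1 rose about as much as IARS1 and GARS1, with no core in these 300 bases. The E-box and the NRF1 site were also searched on both strands. The E-box, CACGTG, a site of MYC family factors, was held by IARS1 among 16 cytosolic members (6.25%) and by CARS2, EARS2 and MARS2 among 14 mitochondrial members (21.4%), against 8.77% of all genes. The site of NRF1, a factor of nuclear genes for mitochondria (10 bases), was held by FARSB, SARS1 and TARS1 (18.8%) and by IARS2, MARS2 and PARS2 (21.4%), against 6.98% of all genes. The called members with the NRF1 site went both ways, with SARS1 and TARS1 higher and FARSB and IARS2 lower.

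The other genes of tRNA charging were read from lists, by the same test. Mitochondria make glutamine tRNA by an indirect route, in which EARS2 places glutamate and the GatCAB complex (QRSL1, GATB and GATC) converts it, and MTFMT adds the formyl group to the initiator methionine. Of these 4 accessory genes 3 were higher (75%, against 23.2% of all genes tested), with a median of 0.44. QRSL1 rose by 0.67 (adjusted p = 4.65e-05), MTFMT by 0.50 (0.00484) and GATC by 0.37 (0.0106), and GATB was at 0.33 and did not pass (0.0591). Together with EARS2 (0.37), 3 of the 4 genes of the indirect route were thus higher, whereas QARS1, the direct glutamine enzyme, was lower. Of 6 genes of proofreading and related enzymes 2 were higher (33.3%, against 23.2% of all genes tested), with a median of 0.28. These were PSTK (0.95, adjusted p = 0.00109), the kinase that acts on seryl-tRNA of selenocysteine after SARS1, and DTD2 (0.48, 0.0237), a deacylase.

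Of 22 tested genes of tRNA maturation and export (24 listed), 5 were higher (22.7%, against 23.2% of all genes tested) and 1 was lower (4.55%, against 23.7%), with a median of 0.05. RPP21 and TSEN34, which were not tested, had 0 to 4 counts per library. XPOT, the exporter of tRNA from the nucleus, rose by 0.68 (14107 and 14395 counts in control, 21696 and 23685 in Erastin cells, adjusted p = 3.44e-06). ELAC1 (0.78) and RPP14 (0.66) were higher, and RPP25 (-0.85), like RPP14 a subunit of RNase P, was lower. RNA polymerase III transcribes tRNA genes. Of 20 tested genes of this polymerase and its factors and regulators (21 listed), 8 were higher (40%) and 3 lower (15%), with a median of 0.12. Of all genes tested, 23.2% were higher and 23.7% lower. BDP1 had 0 counts in every library and was not tested. The higher genes of the polymerase list include MAF1 (0.41, adjusted p = 0.00288), which is known as a repressor of this polymerase. The changes of BRF2 (0.66), POLR3C (0.62), POLR3G (-0.45), GTF3A (-0.32) and BRF1 (-0.31) were moderate. POLR3E, at 2.21, had replicates that differed widely (188 and 19 counts in control, 711 and 238 in Erastin cells).

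Cytosolic elongation genes bring charged tRNA to the ribosome and move it along. Of 7 tested (8 listed), 4 were lower (57.1%, against 23.7% of all genes tested), 1 was higher and 2 did not pass, with a median of -0.35. EEF1G had 0 counts in every library and was not tested, and EEF1D had 109 to 207 counts. What set these counts was not tested. EEF1A1, which carries charged tRNA to the ribosome, fell by 0.72 on the log2 scale (6285 and 6071 CPM in control, 3857 and 3623 CPM in Erastin cells, adjusted p = 2.34e-06). Its paralogue EEF1A2 was at 192 and 200 counts in control and 2 and 18 in Erastin cells (log2 fold change -4.28). EEF1B2 was at -1.94 with uneven replicates (2072 and 4478 against 1395 and 278 counts). EEF2K, the kinase that inhibits elongation factor 2, rose by 1.96 (1.86 and 1.26 against 7.15 and 4.96 CPM, adjusted p = 0.000213). Of 11 mitochondrial translation factors, 5 were higher (45.5%, against 23.2% of all genes tested) and 2 lower (18.2%, against 23.7%), with a median of 0.20. Among them GFM2 (0.53), MTIF2 (0.47) and GUF1 (0.41) were higher, and MRRF (-0.51) and MTRF1 (-0.40) were lower.

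Of 15 genes of the amino acid response, 14 were higher (93.3%, against 23.2% of all genes tested), with a median of 1.25. Of the 14, 8 were higher by at least 1 on the log2 scale, as were 6.24% of all genes tested. Several of the 15 genes were known to be higher from earlier results of the same libraries, so their count is no independent evidence. ATF4 itself was at 218 and 249 CPM in control and 944 and 949 CPM in Erastin cells, a log2 fold change of 2.02 (SE 0.0759, adjusted p = 2.09e-09). CHAC1 (2.76), which degrades glutathione, ATF3 (2.25) and SESN2 (2.14) changed most. EIF2AK4, the sensor of uncharged tRNA, was at -0.16 and did not pass (adjusted p = 0.0673). Over the 32 tested synthetases the median was 0.24, with 16 higher, 5 lower and 11 that did not pass.

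**Figure D4:**
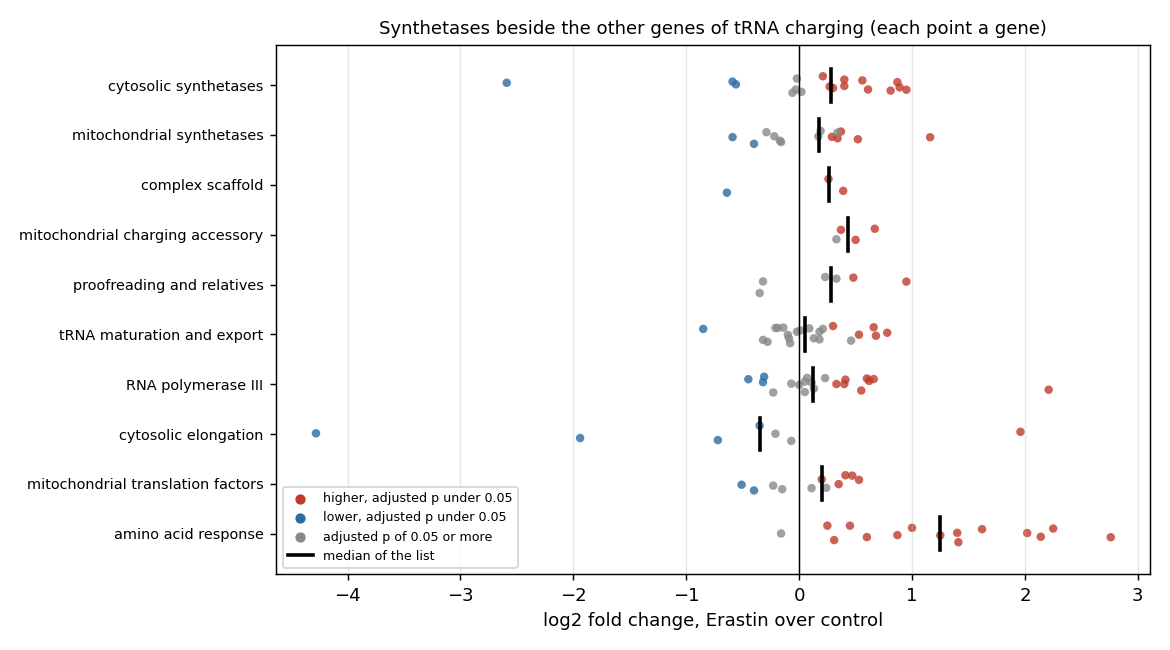
Log2 fold change of each tested gene in the synthetase groups and in 8 other lists of tRNA charging and translation, coloured by call, with the median of each list as a black bar. The medians run from -0.35 for cytosolic elongation to 1.25 for the amino acid response, with the cytosolic synthetases at 0.28 and the mitochondrial synthetases at 0.18.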

How the data were processed

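Total RNA of U87MG cells was sequenced in 4 libraries (2 control, 2 Erastin), grouped by their labels. The authors deposited raw counts of reads per gene, written per the file headers by featureCounts 2.0.3 with the Ensembl release 90 annotation of GRCh38, whereas the submitters' notes name featureCounts 2.0.4 after HISAT2 2.1.0 and the methods name htseq-count. Strand was not used, mates were counted singly, and reads on several genes or places were left out. The deposited values were checked for the decimals of estimated counts, and all were whole.

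Members were matched by Ensembl identifier to gene symbols. Counts were tested with edgeR 4.0.16 in R 4.3.3 (filterByExpr with a minimum count of 10, TMM, quasi-likelihood test, two-sided, Benjamini-Hochberg over 16751 genes). The biological coefficient of variation was 10.3%. The procedure was tested on simulated data with changes of a doubling or halving or more, and the same spread for every gene. Smaller changes, such as those of most members, were not simulated. No molecular identifiers are named in the sources, so counts may overstate the number of independent molecules. Alternatives were DESeq2 1.42.0, other scalings and filters, halved counts, a replicate block and each library left out.

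The members and lists were chosen with earlier results of these data known. Values in every library were given for members past the study's thresholds, the 3 largest rises and falls in each compartment, CARS1, EPRS1, QARS1, GARS1, KARS1 and every called mitochondrial member. From each list, counts and the log2 fold changes of at most the 3 largest changes each way among called genes were given. MARS1, NARS1, AARS1, ATF4, EIF2AK4, GATB, MAF1, EEF1D, the untested genes of the lists and the overlapping or neighbouring genes were named after their values were seen. Words of 31 bases came from the canonical transcripts of GENCODE 44. ChIP-seq and HiChIP data were not analysed here, and a planned comparison of protein sequences was not made.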

Additional observations from a re-analysis of the deposited data

How the results depend on the processing

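The 6 counts and 2 medians of the compartments stayed within 1.5 times or within the replicate spread under DESeq2, RLE size factors, library totals, no filter on low counts, a minimum of 10 counts in all libraries, counts divided by 2 and the omission, chosen after seeing the data, of members with at least 50% of their words on alternate scaffolds. When single libraries were left out, the median of the cytosolic enzymes ranged from 0.23 to 0.40 (highest without control replicate 1), that of the mitochondrial enzymes from 0.09 (without control replicate 2 or Erastin replicate 1) to 0.26, the cytosolic higher count from 9 to 11, the cytosolic lower count from 2 to 3 and the mitochondrial higher count from 4 to 5. CARS1 reversed to 1.04 without control replicate 1, and ranged from -3.54 to 1.04. The calls of CARS1, FARSA, TARS1, HARS1 and HARS2 were each lost without at least 1 of the libraries, those of CARS1, HARS1 and HARS2 with DESeq2, that of HARS1 without the filter (adjusted p = 0.0539), and TARS2 passed with library totals (0.0435), which moved the median of all genes to 0.05. The cause was not tested. The labels share replicate numbers but not a stated pairing, and same-numbered libraries deviated together with a correlation of only 0.0203. With a replicate block, 11 cytosolic members were higher and 3 lower, 5 mitochondrial members were higher and 2 lower, the medians were 0.28 and 0.18, and all 32 calls kept their side of the threshold, with CARS1 at -1.67. With 2 libraries per group, and 0 to 3 counts for VARS1, SARS2 and VARS2, small changes and these 3 genes are beyond what the data can show.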
